A study of Mus musculus with 10 samples.

Results

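The genes that encode transporters of amino acids, monocarboxylates and neurotransmitters were examined in 3 populations of freshly sorted mouse endothelial cells. Members were all rows of the count table whose symbol belongs to the solute carrier families Slc1, Slc3, Slc6, Slc7, Slc16, Slc36, Slc38 or Slc43 and ends in a member number, which gave 73 of 23284 gene symbols. The rule uses names and no measured value, although it was chosen with earlier results of these data known. From lymph nodes came lymphatic cells, called LN-LEC, with 4 libraries, and blood vessel cells, called LN-BEC, with 3; a further 3 libraries, called D-LEC, held lymphatic cells from the diaphragm. All came from C57BL/6 (B6) mice of 6 to 8 weeks, for which the labels name no altered allele and no treatment. The lymph node populations were taken from inguinal, axillary, brachial, cervical and mesenteric nodes mixed together, and each library was made from the cells of several animals, so that a value describes a pool. Cells were sorted as CD45-negative and CD31-positive, with PDPN separating lymphatic from blood endothelium. LN-LEC and LN-BEC therefore share an organ, LN-LEC and D-LEC share a lineage, and D-LEC and LN-BEC share neither.

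Solute carriers move small molecules across the plasma membrane or across the membranes of lysosomes and vesicles. Amino acid carriers fall into concentrating carriers, which use the sodium gradient to load the cell, exchangers, which trade 1 amino acid for another, and facilitators, which let amino acids leave along their own gradient; endothelial cells line the route by which nutrients pass between blood, tissue and lymph and carry all of these kinds. Many exchangers are light chains that reach the surface only when bound to a heavy chain such as CD98, and several lactate carriers need the protein basigin in the same way. The neurotransmitter carriers of family Slc6 are best known from neurons, but their taurine, creatine and glycine relatives occur in many tissues.

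Libraries held between 22429940 and 48906070 counted fragments, and LN-LEC replicate 4 was the deepest. Of the 6 lymphatic markers looked up, Prox1, Lyve1, Pdpn, Reln and Flt4 were higher in LN-LEC and in D-LEC than in LN-BEC, and Ccl21a had no count in any library; 6 of 6 blood endothelial markers were higher in LN-BEC compared with either lymphatic population. LN-BEC replicate 3 held more of the lymphatic markers than the other LN-BEC libraries, with Lyve1 at 5.89% of its LN-LEC mean against 1.45% and 1.06%. Markers of other cell types differed between the populations. The summed level of 12 skeletal muscle markers other than Ttn was 1246 to 1995 normalized counts in D-LEC, 34.6 to 54.6 in LN-LEC and 85.6 to 107 in LN-BEC, and the summed level of 4 mesothelial markers was 562 to 1751 in D-LEC, 25.4 to 76.5 in LN-LEC and 22.5 to 131 in LN-BEC. Ttn ran the other way, with 613 to 1047 in D-LEC, 3392 to 3948 in LN-LEC and 2759 to 3432 in LN-BEC, so that all 13 muscle markers together summed to less in D-LEC (1859 to 2869) than in LN-LEC (3427 to 4003). Over 11 leukocyte markers the sum was 756 to 1164 in LN-BEC, 248 to 299 in LN-LEC and 138 to 263 in D-LEC, and over 8 fibroblast and pericyte markers it was 6194 to 10580, 6183 to 9947 and 1968 to 5084 in the same order. The 10 genes of the response to tissue dissociation summed to 241900 to 273100 in D-LEC, 82350 to 153900 in LN-BEC and 28680 to 79610 in LN-LEC, with the highest LN-LEC value in replicate 4 and the highest LN-BEC value in replicate 3. The part of these differences in the results below was not tested. Nothing in the labels says how the pools of animals relate to each other, so p-values measure the spread between these libraries.

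Of the 73 members, 69 had at least 1 count and 63 had a mean normalized count of at least 1 in at least 1 population and were tested. A normalized count is the number of fragments of a gene divided by the size factor of its library. With edgeR's quasi-likelihood test on all genes together, and a call at an adjusted p under 0.05, 36 of the 63 differed between LN-LEC and D-LEC, 32 between D-LEC and LN-BEC, and 29 between LN-LEC and LN-BEC. Against D-LEC, 25 members (39.7%) were higher in LN-LEC, where 24.0% of all 15368 genes tested were, and 11 (17.5%) were higher in D-LEC, where 21.7% of all genes were. Against LN-BEC, 18 members (28.6%) were higher in LN-LEC beside 19.8% of all genes, and 11 (17.5%) were higher in LN-BEC beside 18.4%. Between the populations that share neither organ nor lineage, 12 members (19%) were higher in D-LEC beside 22.4% of all genes, and 20 (31.7%) were higher in LN-BEC beside 25.6%. No share was tested against that of all genes. The shares of members higher in LN-BEC, and of those higher in D-LEC, lie near it in both of their comparisons. They are not results about the transporters. A median member differed by 1.21 on the log2 scale, in either direction, between LN-LEC and D-LEC, where the median over all genes was 0.51; the corresponding medians were 0.97 and 0.43 between LN-LEC and LN-BEC, and 0.95 and 0.57 between D-LEC and LN-BEC. For members with no count in 1 population compared, the member medians replaced the fitted change by a bound from a floor of 3 counts. The medians over all genes used fitted changes throughout, so the measures are not quite alike. The 3 comparisons share libraries, so that their counts are not independent of each other.

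**Figure D1:**
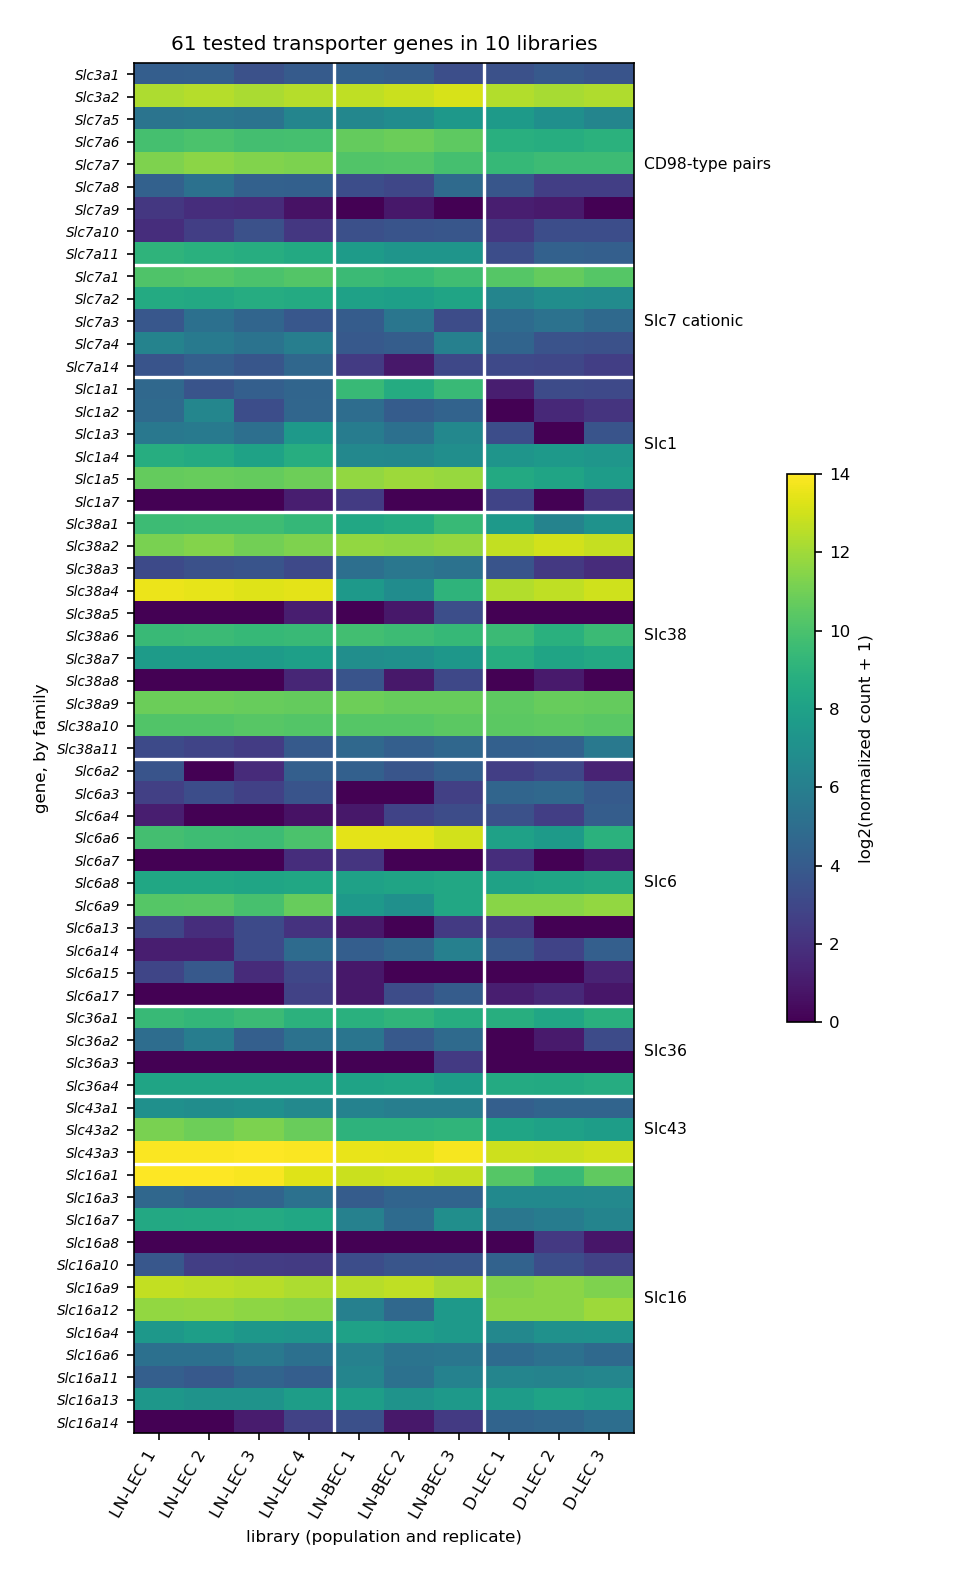
Heat map of log2(normalized count + 1) for 61 tested transporter genes (rows, by family) in the 10 libraries (columns, by population and replicate), with white lines between families and between populations. Slc43a3 and Slc3a2 are bright in every column, Slc38a4 and Slc16a12 are darker in the 3 LN-BEC columns than in the others, and Slc6a6 is brightest in those columns.

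LN-LEC were higher than both other populations for 12 members, among them Slc7a7, Slc7a11, Slc7a2, Slc1a4, Slc6a15, Slc43a1, Slc43a2, Slc43a3, Slc16a1 and Slc16a7. LN-BEC were higher than both lymphatic populations for 6 members, which were Slc3a2, Slc7a6, Slc1a1, Slc1a5, Slc38a3 and Slc6a6, and D-LEC were higher than both lymph node populations for 6, which were Slc38a2, Slc38a7, Slc6a9, Slc36a4, Slc16a3 and Slc16a14. In the opposite direction D-LEC were below both lymph node populations for 17 members, LN-BEC below both lymphatic populations for 7 and LN-LEC below both others for 5. A total of 16 members differed in all 3 comparisons and 19 of the 63 in none. The shares of all genes with these patterns were not worked out, so the counts describe the members alone and set them apart from no background. In a population as a whole, fewer cells that carry a transcript and less of it per cell cannot be told apart.

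A few genes supplied most of the transporter transcripts. To compare genes with each other, normalized counts were divided by the exon length of the gene in kilobases. On that scale Slc43a3, whose product carries purine nucleobases, ranked first of the members in every population, with 27.3% ± 2.45 (SD, n = 4) of the summed level of all members in LN-LEC, 27% ± 2.44 (n = 3) in LN-BEC and 22.4% ± 0.434 (n = 3) in D-LEC. Behind it the populations parted. In LN-LEC the lactate carrier Slc16a1 (14.5% ± 2.51) and the neutral amino acid carrier Slc38a4 (12.6% ± 0.861) followed. In LN-BEC the heavy chain Slc3a2 (14.7% ± 2.09), Slc16a1 (9.71% ± 0.926) and the taurine carrier Slc6a6 (9.31% ± 1.71) followed. In D-LEC Slc3a2 (12.5% ± 0.987), Slc38a4 (12.4% ± 1.93) and Slc38a2 (11.6% ± 1.79) followed, and the last 3 did not differ beyond their spread. The 10 highest members made up 86.3% of the summed level in LN-LEC, 84.7% in D-LEC and 88.1% in LN-BEC. The summed level per kilobase over all members was 21380 to 23260 in LN-LEC, 17090 to 18300 in LN-BEC and 13150 to 14590 in D-LEC, whereas its share of the per-kilobase sum over all genes was 0.141 to 0.188% in LN-LEC, 0.0772 to 0.0989% in LN-BEC and 0.109 to 0.123% in D-LEC, so that the order of LN-BEC and D-LEC depended on the scale.

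**Figure D2:**
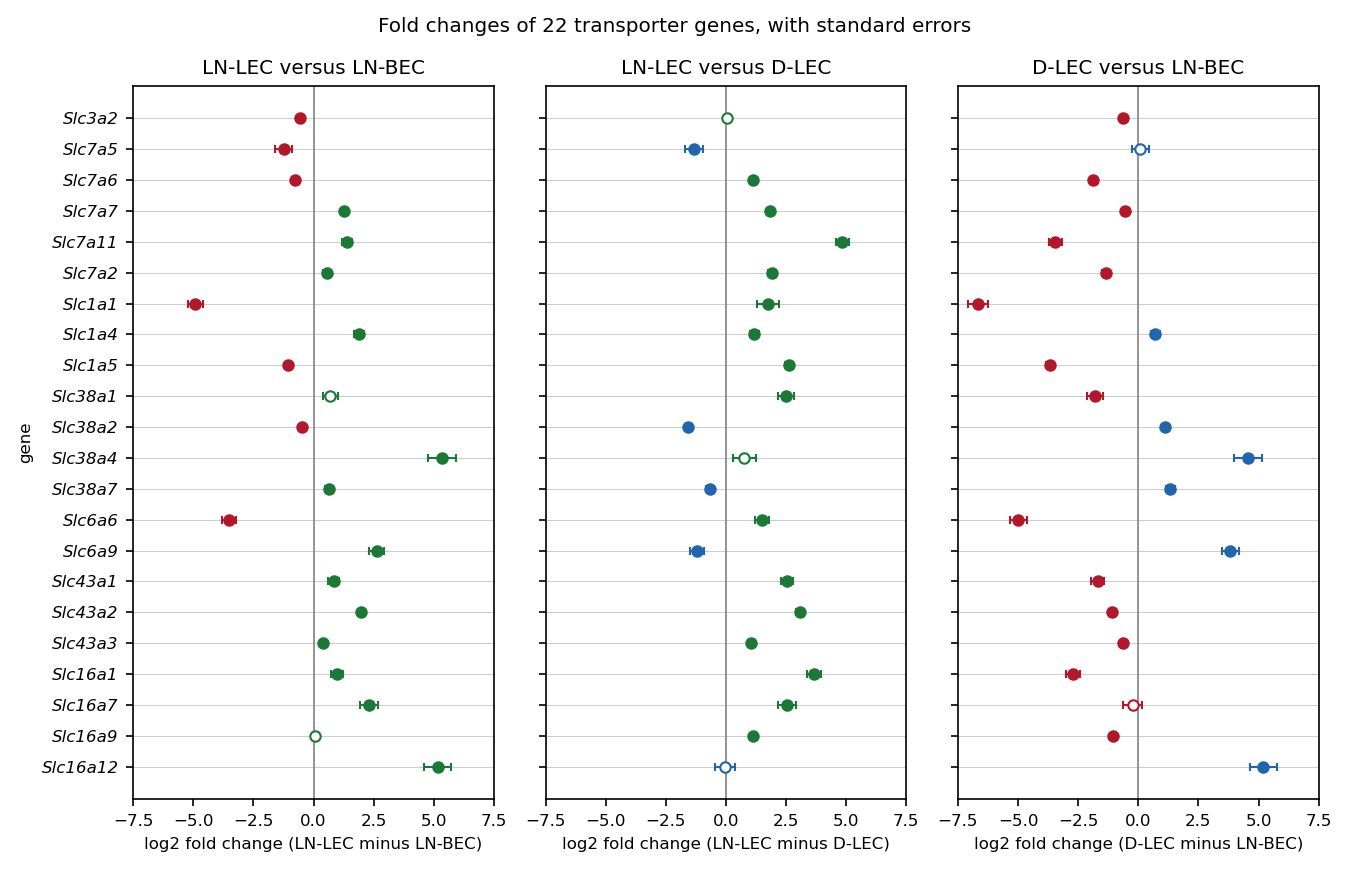
Log2 fold changes (horizontal axes, first population minus second) with standard errors for 22 transporter genes in the 3 comparisons; filled points were called at an adjusted p under 0.05 and open points were not, and colour marks the population with the higher level (LN-LEC green, LN-BEC red, D-LEC blue). In both comparisons with LN-BEC, Slc1a1 and Slc6a6 lie far on the LN-BEC side and Slc38a4 and Slc16a12 far on the lymphatic side.

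The CD98-type pairs consist of a heavy chain, which carries the complex to the surface, and a light chain, which transports. Slc3a2, the CD98 heavy chain (mm9 chr19:8781372-8797859), was abundant everywhere. Its normalized counts were 4874, 5461, 4751 and 5555 in the LN-LEC libraries, 6450, 7504 and 9162 in LN-BEC, and 5284, 4646 and 5193 in D-LEC. The LN-BEC libraries lay above all others, by 1.48-fold over LN-LEC (log2 fold change -0.56 for LN-LEC minus LN-BEC, SE 0.11, adjusted p = 0.0011) and 1.53-fold over D-LEC (adjusted p = 0.00077), whereas the lymphatic populations overlapped and differed by 0.06 ± 0.11 (SE) on the log2 scale. Of the 9 tested genes of this group, 2 were higher in LN-LEC and 3 in LN-BEC when these were compared (19.8% and 18.4% of all genes), 4 were higher in LN-LEC and 1 in D-LEC in the comparison within the lymphatic lineage (24.0% and 21.7%), and 4 were higher in LN-BEC and none in D-LEC when those were compared (25.6% and 22.4%).

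Slc7a7 (chr14:54989126-55036539), the light chain y+LAT1 that exports arginine and lysine in exchange for neutral amino acids, was the main light chain of LN-LEC. Its libraries gave 2534, 2999, 2594 and 2412 in LN-LEC, 1155, 1205 and 940 in LN-BEC, and 661, 787 and 784 in D-LEC. The 3 populations did not overlap, and LN-LEC exceeded LN-BEC 2.42-fold (adjusted p = 8.1e-07) and D-LEC 3.59-fold (adjusted p = 2.2e-08). Its close relative Slc7a6 (chr8:108692775-108722604), the light chain y+LAT2 with the same substrates, had another order, with LN-BEC first. Slc7a6 was read at 946, 1060, 914 and 927 in LN-LEC, at 1673, 1862 and 1448 in LN-BEC, and at 447, 422 and 490 in D-LEC. The LN-BEC level was 1.71-fold that of LN-LEC (adjusted p = 3e-05) and 3.68-fold that of D-LEC (adjusted p = 1e-08). In D-LEC both relatives were at their lowest.

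Slc7a11 (chr3:50168858-50247535), the light chain xCT that takes up cystine in exchange for glutamate and so feeds glutathione synthesis, had the largest fold change between LN-LEC and D-LEC among the members with at least 100 normalized counts. Its values were 541, 467, 423 and 365 in LN-LEC, 204, 156 and 158 in LN-BEC, and 8.83, 19.0 and 18.2 in D-LEC. No population overlapped another, and LN-LEC exceeded D-LEC 28.6-fold (log2 fold change 4.84, SE 0.26, adjusted p = 3.3e-09) and LN-BEC 2.63-fold (log2 fold change 1.39, SE 0.2, adjusted p = 6.1e-05). The genes that make glutathione from the cystine did not share this order: Gclc, the catalytic subunit of the first enzyme, was lower in LN-LEC than in D-LEC by 0.85 ± 0.1 (SE) on the log2 scale (adjusted p = 7.6e-06), as were Gclm (0.55 ± 0.09, adjusted p = 0.00016) and Gss (0.6 ± 0.18, adjusted p = 0.014).

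Slc7a5 (chr8:124405046-124431586), the light chain LAT1 of the blood-brain barrier and of dividing cells, was sparse. Normalized counts were 40.2, 44.4, 39.6 and 81.1 in LN-LEC, 88.4, 110 and 178 in LN-BEC, and 198, 124 and 81.0 in D-LEC. LN-LEC were lower than LN-BEC (2.36-fold, adjusted p = 0.014) and lower than D-LEC (2.51-fold, adjusted p = 0.0081), although LN-LEC replicate 4 reached the lowest D-LEC library. Without LN-BEC replicate 3 the first of these calls was lost (log2 fold change -0.91, adjusted p = 0.072), and without D-LEC replicate 1 the second (-0.96, adjusted p = 0.053). The other light chains of the pairs were low. Slc7a8 (LAT2) averaged 23.6 in LN-LEC, 7.53 in D-LEC and 14.3 in LN-BEC and passed the test between the lymphatic populations alone (adjusted p = 0.035), a call that ended without LN-LEC replicate 2 (adjusted p = 0.1), D-LEC replicate 2 (adjusted p = 0.11) or D-LEC replicate 3 (adjusted p = 0.12). Slc7a10 (Asc-1), Slc7a9 and its heavy chain Slc3a1, all with population means under 15, passed in no comparison.

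Light chains were set against their heavy chain within each library, per kilobase. The 6 light chains known to pair with Slc3a2 summed to 79.4% ± 7.61 (SD, n = 4) of the Slc3a2 level in LN-LEC, to 37.4% ± 8.96 (n = 3) in LN-BEC and to 27.3% ± 2.5 (n = 3) in D-LEC. The LN-LEC libraries (68.2 to 84.3%) lay above all others, and LN-BEC (27.3 to 44.2%) overlapped D-LEC (25 to 29.9%). Slc7a7 made up most of the sum in LN-LEC, at 60.5% ± 6.33 of Slc3a2, whereas in LN-BEC Slc7a7 (17.4% ± 4.71) and Slc7a6 (17.6% ± 4.4) were alike within their spread. Slc7a11 stood at 2.81% ± 0.593 of Slc3a2 in LN-LEC, 0.099% ± 0.0405 in D-LEC and 0.743% ± 0.241 in LN-BEC, and Slc7a5 at 0.827% ± 0.268, 2.24% ± 0.921 and 1.34% ± 0.256 in the same order of populations. These are ratios of transcripts, and no protein was measured.

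**Figure D3:**
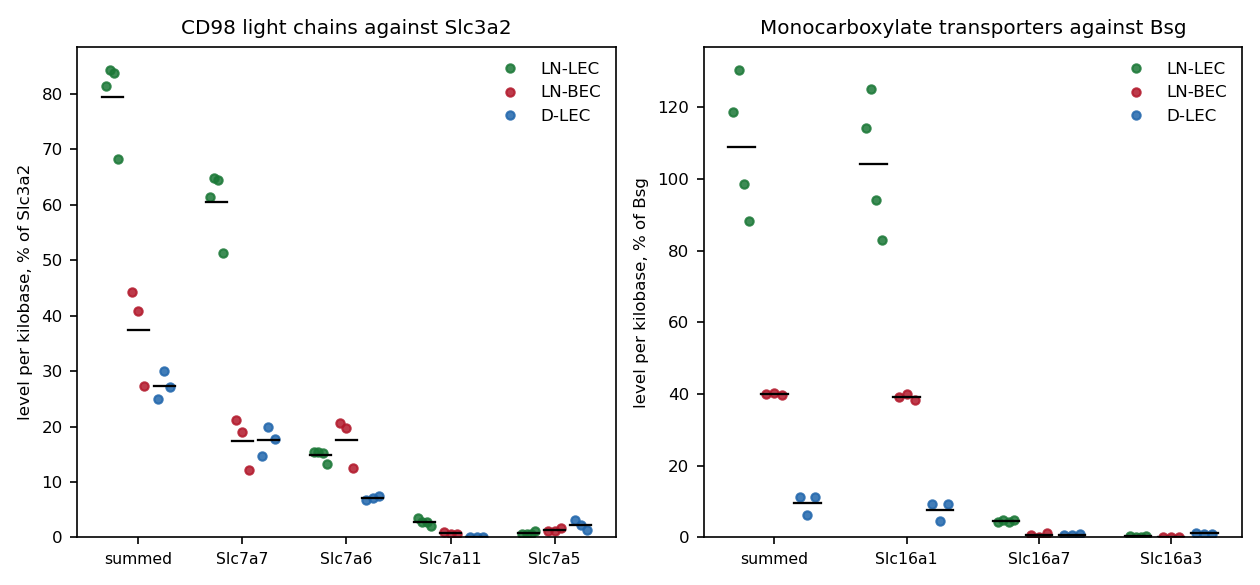
Level per kilobase of the CD98 light chains as a percentage of Slc3a2 (left) and of the monocarboxylate transporters as a percentage of Bsg (right), with a point for each library and a bar at the mean of each population. The LN-LEC libraries stand at 68.2 to 84.3% in the left sum and 88.2 to 130% in the right sum, above all LN-BEC and D-LEC libraries.

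Promoter sequences from RefSeq (GRCm38.p6, a later build than the mm9 of the counts) were found for 50 of the 73 members, in 71 windows of 250 bases before a transcription start. The amino acid response element TGATGNAA, a composite site at which ATF4 and C/EBP factors act when amino acids are short, was matched on either strand in 3.45% of all 32851 windows and in 3 of the 71 windows of members (4.23%), those of Slc7a7 and Slc7a11. Both are shown, 5′ to 3′ on the strand of the gene, because they are light chains whose levels differed in all 3 comparisons. Capitals mark the matches, which in Slc7a11 begin 66 and 47 bases before the start and in Slc7a7, before the most upstream of its starts, 141 bases before it; the window of another Slc7a7 start, not shown, holds a match 243 bases before that start.
Slc7a11, minus strand, chr3:50443614-50443863: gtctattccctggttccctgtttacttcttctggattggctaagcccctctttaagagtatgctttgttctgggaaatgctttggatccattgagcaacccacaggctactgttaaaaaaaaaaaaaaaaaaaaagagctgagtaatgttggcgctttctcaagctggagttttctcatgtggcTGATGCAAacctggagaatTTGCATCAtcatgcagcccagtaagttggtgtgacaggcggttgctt
Slc7a7, minus strand, chr14:54417945-54418194: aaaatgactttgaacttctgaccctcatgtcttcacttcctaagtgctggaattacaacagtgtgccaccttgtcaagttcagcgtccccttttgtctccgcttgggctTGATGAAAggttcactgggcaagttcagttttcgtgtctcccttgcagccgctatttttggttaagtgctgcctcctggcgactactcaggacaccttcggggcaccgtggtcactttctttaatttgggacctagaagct
In Slc7a11 the matches lie on opposite strands. A match describes the letters of the window, and no binding was measured here. Atf4 itself was lower in LN-LEC than in LN-BEC by 0.38 ± 0.1 (SE) on the log2 scale (adjusted p = 0.006) and lower than in D-LEC by 0.56 ± 0.09 (adjusted p = 0.00026).

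Cationic amino acid transporters, which take up arginine and lysine, were carried mainly by Slc7a1 and Slc7a2. Slc7a1 (CAT-1, the widespread form) averaged 1156 ± 79.1 (SD, n = 4) in LN-LEC, 750 ± 95.6 (n = 3) in LN-BEC and 1387 ± 243 (n = 3) in D-LEC, and both lymphatic populations were above LN-BEC, LN-LEC by 1.56-fold (adjusted p = 0.00092) and D-LEC by 1.85-fold (adjusted p = 8.4e-05). Slc7a2 (CAT-2, known from activated macrophages and liver, chr8:41947721-42007424) was read at 375, 348, 405 and 370 in LN-LEC, at 253, 240 and 285 in LN-BEC, and at 83.2, 114 and 105 in D-LEC. Here the lymph node populations were both higher than D-LEC, LN-LEC by 3.75-fold (adjusted p = 1.8e-07) and LN-BEC by 2.57-fold (adjusted p = 6.1e-06), with no overlap among the 3. The endothelial nitric oxide synthase Nos3, which uses arginine, was 0.53 ± 0.12 (SE) higher on the log2 scale in LN-LEC than in D-LEC (adjusted p = 0.0022). Slc7a3 averaged under 35 in every population and passed in no comparison. Slc7a4 and Slc7a14, relatives of these carriers, had low levels, and each was called in 1 comparison: Slc7a4 was higher in LN-LEC compared with D-LEC (adjusted p = 0.0086) and Slc7a14 higher in LN-LEC compared with LN-BEC (adjusted p = 0.022), the latter call being lost without LN-LEC replicate 4 (adjusted p = 0.07), LN-BEC replicate 1 (adjusted p = 0.057) or LN-BEC replicate 2 (adjusted p = 0.077). Without LN-BEC replicate 3 the log2 fold change of Slc7a14 grew from 2.02 to 2.64. That of Slc7a4 for LN-LEC minus LN-BEC grew from 0.83 (adjusted p = 0.23) to 1.91 without the same library, and was then called (adjusted p = 0.0039).

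Family Slc1 holds the glutamate carriers and the exchangers ASCT1 and ASCT2. Of its 6 tested members 5 were higher in LN-LEC compared with D-LEC and none was lower (24.0% and 21.7% of all genes). In LN-BEC 4 were higher than in D-LEC and 1, Slc1a4, was lower (25.6% and 22.4%). Slc1a5 (ASCT2, chr7:17366695-17383623), the exchanger through which many cells obtain glutamine, was read at 1649, 1727, 1655 and 1951 in LN-LEC, at 3430, 3987 and 3717 in LN-BEC, and at 363, 294 and 212 in D-LEC. LN-BEC exceeded LN-LEC 2.1-fold (adjusted p = 2.1e-05) and D-LEC 12.95-fold (adjusted p = 5.9e-10), and the populations did not overlap. Slc1a4 (ASCT1, chr11:20202183-20232716), which exchanges alanine, serine and cysteine, was read at 425, 375, 269 and 414 in LN-LEC, at 92.8, 89.9 and 121 in LN-BEC, and at 155, 182 and 161 in D-LEC. For this relative LN-LEC came first, 3.71-fold above LN-BEC (adjusted p = 2.3e-06) and 2.26-fold above D-LEC (adjusted p = 0.00012).

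Slc1a1 (EAAC1, chr19:28909656-28988450), a carrier of glutamate, aspartate and cysteine, was highest in LN-BEC. The LN-BEC libraries held 697, 398 and 719 normalized counts, those of LN-LEC 25.9, 11.4, 18.1 and 22.6, and those of D-LEC 1.26, 8.02 and 7.44. The LN-BEC level was 30.1-fold that of LN-LEC (log2 fold change -4.91 for LN-LEC minus LN-BEC, SE 0.32, adjusted p = 6.4e-08) and 100.4-fold that of D-LEC (log2 fold change -6.65 for D-LEC minus LN-BEC, SE 0.42, adjusted p = 3e-08). The level in the LN-LEC libraries was 1.89 to 4.29% of the LN-BEC mean, beside 1.03 to 1.74% for the blood endothelial marker Flt1, 1.05 to 1.94% for Nrp1, 1.5 to 3.01% for Vwf, 1.66 to 3.22% for Notch4, 2.86 to 5.04% for Emcn and 41.7 to 46.4% for Plvap in the same libraries. The glial carriers Slc1a2 and Slc1a3 averaged 35.8 and 78.1 in LN-LEC, 22.7 and 61.6 in LN-BEC and 1.77 and 6.8 in D-LEC; both were called against D-LEC from LN-LEC (adjusted p = 0.0017 and 0.008) and from LN-BEC (adjusted p = 0.0064 and 0.016). LN-LEC replicate 4 held 180 normalized counts of Slc1a3, against 33.9 to 50.8 in the other LN-LEC libraries, and without it the log2 fold change over D-LEC was 2.68 instead of 3.53. Without D-LEC replicate 3 it was 4.28, and without D-LEC replicate 1 the call between D-LEC and LN-BEC was lost (adjusted p = 0.052). For Slc1a2 the log2 fold change over D-LEC of 4.12 became 3.30 without LN-LEC replicate 2 and 4.88 without D-LEC replicate 3. Without that D-LEC library the log2 fold changes for D-LEC minus LN-BEC also grew, from -3.47 to -4.23 for Slc1a2 and from -3.14 to -3.89 for Slc1a3.

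Family Slc38 takes up neutral amino acids, glutamine above all, along the sodium gradient. Slc38a4 (SNAT4, chr15:96825254-96886387), best known from liver and placenta, was the third most abundant member per kilobase in both lymphatic populations. It was read at 12120, 11293, 10378 and 11188 in LN-LEC, at 5392, 6516 and 8194 in D-LEC, and at 186, 111 and 560 in LN-BEC. All lymphatic libraries were above all LN-BEC libraries, by 40.2-fold for LN-LEC (log2 fold change 5.33, SE 0.58, adjusted p = 0.00015) and 23.6-fold for D-LEC (log2 fold change 4.56, SE 0.57, adjusted p = 0.00029). LN-LEC lay above D-LEC without overlap, yet the difference of 0.77 ± 0.46 (SE) did not pass the test in the fit to all libraries (adjusted p = 0.22).

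The LN-BEC libraries differed among themselves in Slc38a4, and the differences ran with those in lymphatic markers. In LN-BEC replicates 1, 2 and 3, Slc38a4 stood at 1.65%, 0.984% and 4.98% of the LN-LEC mean, Lyve1 at 1.45%, 1.06% and 5.89%, Reln at 1.42%, 0.942% and 5.23%, Pdpn at 2.72%, 0.95% and 6.23%, Prox1 at 2.57%, 1.42% and 4.31%, and Flt4 at 14.6%, 11.9% and 16.6%. The creatine carrier Slc16a12 stood at 2.08%, 0.8% and 5.76%. The glycine carrier Slc6a9 had the same order of libraries, at 14.4%, 9.89% and 25.4%. Without LN-BEC replicate 3 the log2 fold change of Slc38a4 over LN-BEC became 6.25 for LN-LEC (adjusted p = 3.8e-09) and 5.49 for D-LEC (adjusted p = 6.3e-09), and the difference between the lymphatic populations, at 0.76, passed the test (adjusted p = 0.0023). Where the lymphatic transcripts in the LN-BEC libraries came from was not tested.

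**Figure D4:**
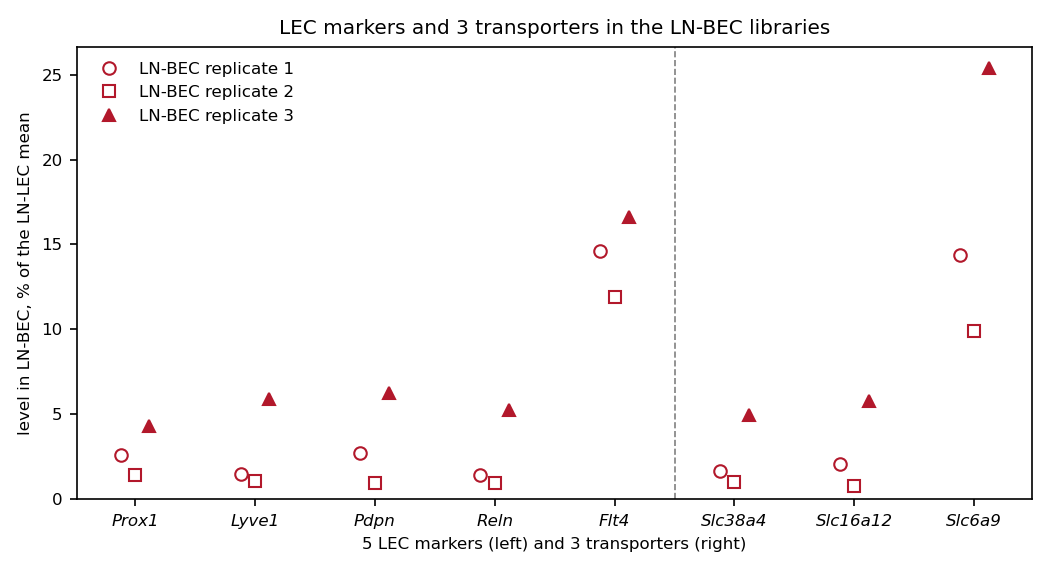
Level of 5 lymphatic markers and 3 transporters in each LN-BEC library in percent of its LN-LEC mean (vertical axis), with a symbol for each of the 3 LN-BEC replicates. Replicate 3 (filled triangles) is the highest library for all 8 genes. Slc38a4 and Slc16a12 lie between 0.8% and 5.76% and 4 of the markers between 0.942% and 6.23%, while Slc6a9 lies between 9.89% and 25.4% and the marker Flt4 between 11.9% and 16.6%.

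Slc38a2 (SNAT2, chr15:96517823-96530129), whose transcript is induced in many cells by amino acid shortage, had the reverse preference within the lymphatic lineage. Its libraries gave 2297, 2695, 2084 and 2533 in LN-LEC, 3422, 3194 and 3496 in LN-BEC, and 6723, 8432 and 6876 in D-LEC. D-LEC exceeded LN-LEC 3.01-fold (log2 fold change -1.59 for LN-LEC minus D-LEC, SE 0.11, adjusted p = 3.6e-08) and LN-BEC 2.17-fold (adjusted p = 2.3e-06), with no overlap. The dissociation-response genes were also highest in D-LEC, at the sums given above, and their part in the Slc38a2 level was not tested. Its neighbour Slc38a1 (SNAT1, chr15:96401849-96473344), 44.5 kb away, ran in the opposite direction. Slc38a1 was read at 762, 805, 804 and 641 in LN-LEC, at 333, 384 and 687 in LN-BEC, and at 189, 75.1 and 141 in D-LEC. LN-LEC exceeded D-LEC 5.69-fold (adjusted p = 0.00016) and LN-BEC exceeded D-LEC 3.49-fold (adjusted p = 0.0016), while LN-LEC and LN-BEC overlapped through LN-BEC replicate 3 (adjusted p = 0.094; without that library the difference was 1.07, adjusted p = 0.0062).

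Slc38a7 (SNAT7, chr8:98359823-98377391), which exports glutamine from lysosomes, was read at 204, 208, 206 and 241 in LN-LEC, at 121, 128 and 167 in LN-BEC, and at 414, 289 and 348 in D-LEC. D-LEC exceeded LN-BEC 2.51-fold (adjusted p = 2.7e-05) and LN-LEC 1.6-fold (adjusted p = 0.0033). The lysosomal arginine sensor Slc38a9 (1776 ± 118 in LN-LEC, 1612 ± 146 in D-LEC and 1797 ± 119 in LN-BEC) and Slc38a6 (712 ± 34.6, 659 ± 165 and 763 ± 103, in the same order) passed in no comparison, and their differences were at most 0.22 on the log2 scale. Slc38a10 was called at 0.21 ± 0.08 (SE) higher in D-LEC than in LN-LEC (adjusted p = 0.048), a call that ended under most of the 17 alternatives. Slc38a3 (SNAT3) was low but higher in LN-BEC (39.6 ± 6.46) compared with LN-LEC (9.2 ± 1.84, adjusted p = 0.0024) and with D-LEC (5.95 ± 4.74, adjusted p = 0.00067), the last fold growing from -2.79 to -3.58 on the log2 scale without D-LEC replicate 1. Slc38a11 was under 30 in every population mean and was lower in LN-LEC than in LN-BEC (adjusted p = 0.046) and in D-LEC (adjusted p = 0.011); the first call ended without any of the LN-LEC replicates 1, 2 or 3 or without any LN-BEC library (adjusted p between 0.057 and 0.12), and the second without D-LEC replicate 3 (adjusted p = 0.11). Slc38a5 and Slc38a8 stayed under 10 normalized counts on average. Slc38a8 was called lower in D-LEC than in LN-BEC (adjusted p = 0.035) although the libraries overlapped; the call ended without LN-BEC replicate 1 or 3 or D-LEC replicate 1 or 3 (adjusted p between 0.058 and 0.13), and without D-LEC replicate 2 the log2 fold change moved from -3.86 to -5.77.

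In family Slc6, which takes up its substrates with sodium and chloride, the taurine and glycine carriers split blood from lymphatic endothelium in opposite directions. Slc6a6 (TauT, chr6:91634061-91709057), the taurine carrier, had 11040, 10923 and 8301 normalized counts in the LN-BEC libraries, 901, 799, 773 and 1047 in those of LN-LEC, and 254, 197 and 497 in those of D-LEC. LN-BEC exceeded LN-LEC 11.3-fold (log2 fold change -3.50 for LN-LEC minus LN-BEC, SE 0.29, adjusted p = 9e-06) and D-LEC 31.8-fold (-4.99 for D-LEC minus LN-BEC, SE 0.35, adjusted p = 2.1e-06), and LN-LEC exceeded D-LEC 2.81-fold (adjusted p = 0.0028). In the LN-LEC libraries Slc6a6 stood at 7.67 to 10.4% of the LN-BEC mean, above 5 of the 6 blood endothelial markers, which lay between 1.03% (Flt1) and 5.04% (Emcn), and below Plvap at 41.7 to 46.4%. Markers of high endothelial venules, the lymphocyte-admitting vessels of the node, were also found in LN-LEC, with a summed level over 4 genes of 67130 to 93250 beside 2146000 to 2907000 in LN-BEC and 580 to 1276 in D-LEC. Glycam1 made up most of the sums in the lymph node populations. Without it they were 11620 to 12290 in LN-LEC, 77790 to 92040 in LN-BEC and 402 to 629 in D-LEC. Most of that remainder was Enpp2, with means of 11864, 76561 and 451 in the same order. The marker Fut7 averaged 56.9 in LN-LEC, 5.16 in D-LEC and 5058 in LN-BEC. The marker Chst4 averaged 36.1 in LN-LEC, 83.1 in D-LEC and 4067 in LN-BEC, and the part of these markers in the Slc6a6 and Slc1a1 levels was not tested. Csad, the enzyme that makes hypotaurine from cysteine sulfinate, differed by 0.26 ± 0.11 (SE) on the log2 scale between LN-LEC and LN-BEC, which did not pass the test (adjusted p = 0.086), and was lower in D-LEC than in LN-LEC by 1.73 ± 0.12 (adjusted p = 5.8e-08). Cdo1, the enzyme before it, was higher in LN-BEC compared with LN-LEC by 1.39 ± 0.29 (adjusted p = 0.0021).

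Slc6a9 (GlyT1, chr4:117507863-117541910), the glycine carrier, had the opposite order. Normalized counts were 2925, 2912 and 3457 in D-LEC, 1282, 1299, 980 and 1723 in LN-LEC, and 191, 131 and 336 in LN-BEC. The populations did not overlap, and D-LEC exceeded LN-LEC 2.31-fold (adjusted p = 0.0061) and LN-BEC 14.2-fold (adjusted p = 1.2e-05), while LN-LEC exceeded LN-BEC 6.15-fold (adjusted p = 0.00013). The creatine carrier Slc6a8 did not pass in any comparison, at 319 ± 11 (SD, n = 4) in LN-LEC, 306 ± 45.8 (n = 3) in D-LEC and 295 ± 37.9 (n = 3) in LN-BEC. Its differences were at most 0.13 ± 0.13 (SE) on the log2 scale.

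Other members of the family, the carriers of neuronal transmitters among them, had low levels, above the detection floor in some libraries and below it in others. The detection floor, 3 counts, is 0.0613 to 0.134 CPM (counts scaled to the library total) and covers counting error only. Slc6a3 (dopamine) averaged 7.76 in LN-LEC, 21.2 in D-LEC and 1.75 in LN-BEC and was called between D-LEC and LN-BEC (adjusted p = 0.0055); every LN-BEC count of it was in replicate 3, without which the call stood (adjusted p = 0.00025) against libraries that were all at 0, where the fitted fold change is no bound. Slc6a4 (serotonin) averaged 0.481 in LN-LEC, 10.54 in D-LEC and 5.11 in LN-BEC and was called lower in LN-LEC than in D-LEC (adjusted p = 0.0038) and than in LN-BEC (adjusted p = 0.034), with the latter call lost without any of LN-LEC replicates 2, 3 or 4 or LN-BEC replicates 2 or 3 (adjusted p between 0.067 and 0.11). Slc6a15 averaged 7.41 in LN-LEC and under 1 in the other populations (adjusted p = 0.014 against LN-BEC and 0.026 against D-LEC); the first call was lost without LN-BEC replicate 2 (adjusted p = 0.054) and the second was lost without LN-LEC replicate 2, D-LEC replicate 1 or D-LEC replicate 2 (adjusted p between 0.071 and 0.083). Its only LN-BEC counts were in replicate 1 and its only D-LEC counts in replicate 3. Slc6a2, Slc6a7, Slc6a13, Slc6a14 and Slc6a17 passed in no comparison of the fit to all libraries. Without LN-LEC replicate 4, LN-BEC were called above LN-LEC for Slc6a14 (log2 fold change -3.27, adjusted p = 0.0049) and Slc6a17 (-6.03, adjusted p = 0.017). Slc6a14 stood at 28.9 in that library against 1.27 to 7.92 in the other LN-LEC libraries. Slc6a17 had no count there, so its fold is no bound. Slc6a13 was called without D-LEC replicate 1 (adjusted p = 0.039), and Slc6a2 when D-LEC and LN-BEC were fitted alone (adjusted p = 0.049).

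Genes of other families that carry the same substrates were read beside these. Among 31 such genes, of which 27 were tested, 8 were higher in LN-LEC compared with LN-BEC and 4 lower (19.8% and 18.4% of all genes), 5 were higher in LN-LEC compared with D-LEC and 4 lower (24.0% and 21.7%), and 7 were higher in D-LEC compared with LN-BEC and 5 lower (22.4% and 25.6%). Slc18a1, a vesicular monoamine transporter, averaged 1909 in LN-LEC, 8.41 in D-LEC and 44.1 in LN-BEC (18.4, 12.1 and 102 in its 3 libraries), so that LN-LEC were above LN-BEC by 5.51 ± 0.59 (SE) on the log2 scale (adjusted p = 0.00011) and above D-LEC by 7.79 ± 0.73 (adjusted p = 4.2e-05). The other vesicular monoamine transporter of the list, Slc18a2, averaged 384 in LN-LEC, 387 in D-LEC and 428 in LN-BEC. Slc22a4, an organic cation carrier, was higher in LN-LEC (371) and D-LEC (286) than in LN-BEC (39.0), by 3.26 ± 0.25 (adjusted p = 1.8e-07) and 2.87 ± 0.26 (adjusted p = 6.1e-07). Maoa, which degrades monoamines, was lower in LN-LEC than in LN-BEC by 1.57 ± 0.08 (adjusted p = 3.7e-09). No amine was measured.

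Of the 4 tested members of the proton-coupled family Slc36, 2 were higher in LN-LEC compared with D-LEC and 1 lower (24.0% and 21.7% of all genes), 1 was higher in D-LEC compared with LN-BEC and 1 lower (22.4% and 25.6%), and none passed between the lymph node populations. Slc36a1 (PAT1, on lysosomes) averaged 643 ± 100.2 (SD, n = 4) in LN-LEC and 404 ± 80.9 (n = 3) in D-LEC (1.61-fold, adjusted p = 0.0039), with LN-BEC between them at 488 ± 79.8. Slc36a4 (PAT4) was read within 286 to 293 in the 4 LN-LEC libraries, the smallest relative spread of any member above 100 normalized counts, and was 1.31-fold higher in D-LEC (adjusted p = 0.021; without D-LEC replicate 3, adjusted p = 0.084). Slc36a2 (PAT2) averaged 36.8 in LN-LEC, 3.09 in D-LEC and 27.7 in LN-BEC, with calls against D-LEC from both lymph node populations (10.46-fold from LN-LEC, adjusted p = 0.003, and 7.81-fold from LN-BEC, adjusted p = 0.0082). Most of its D-LEC level lay in replicate 3, without which the log2 fold changes moved from 3.39 to 5.79 for LN-LEC minus D-LEC and from -2.97 to -5.36 for D-LEC minus LN-BEC. Slc36a3 had counts in LN-BEC replicate 3 alone.

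In family Slc43, 3 of 3 members were higher in LN-LEC compared with LN-BEC (19.8% of all genes) and compared with D-LEC (24.0%). Slc43a2 (LAT4, chr11:75345196-75391074), a facilitator through which leucine, isoleucine, valine, methionine and phenylalanine leave cells, was read at 2323, 1939, 2447 and 1772 in LN-LEC, at 525, 528 and 571 in LN-BEC, and at 299, 255 and 221 in D-LEC. The LN-LEC level was above that of LN-BEC 3.95-fold (log2 fold change 1.98, SE 0.13, adjusted p = 3.9e-08) and D-LEC 8.36-fold (log2 fold change 3.06, SE 0.14, adjusted p = 8.7e-10). Slc43a1 (LAT3, chr2:84679565-84703743), which shares these substrates, had the same order at a lower level, at 128, 117, 129 and 94.9 in LN-LEC, 71.8, 63.1 and 63.02 in LN-BEC, and 17.7, 22.04 and 21.5 in D-LEC. It was 1.79-fold higher in LN-LEC compared with LN-BEC (adjusted p = 0.0084) and 5.76-fold higher than in D-LEC (adjusted p = 1.8e-06).

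Slc43a3 (chr2:84776803-84798666), the nucleobase transporter that led the members, lies 73.1 kb from Slc43a1 on the same strand. It was read at 15521, 15195, 18266 and 15416 in LN-LEC, at 11860, 11299 and 14107 in LN-BEC, and at 7821, 7650 and 8509 in D-LEC. The order of populations was that of its relatives with smaller steps, 1.31-fold over LN-BEC (adjusted p = 0.0071) and 2.04-fold over D-LEC (adjusted p = 2e-06), and no libraries overlapped. LN-LEC thus had the highest level of all 3 members.

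**Figure D5:**
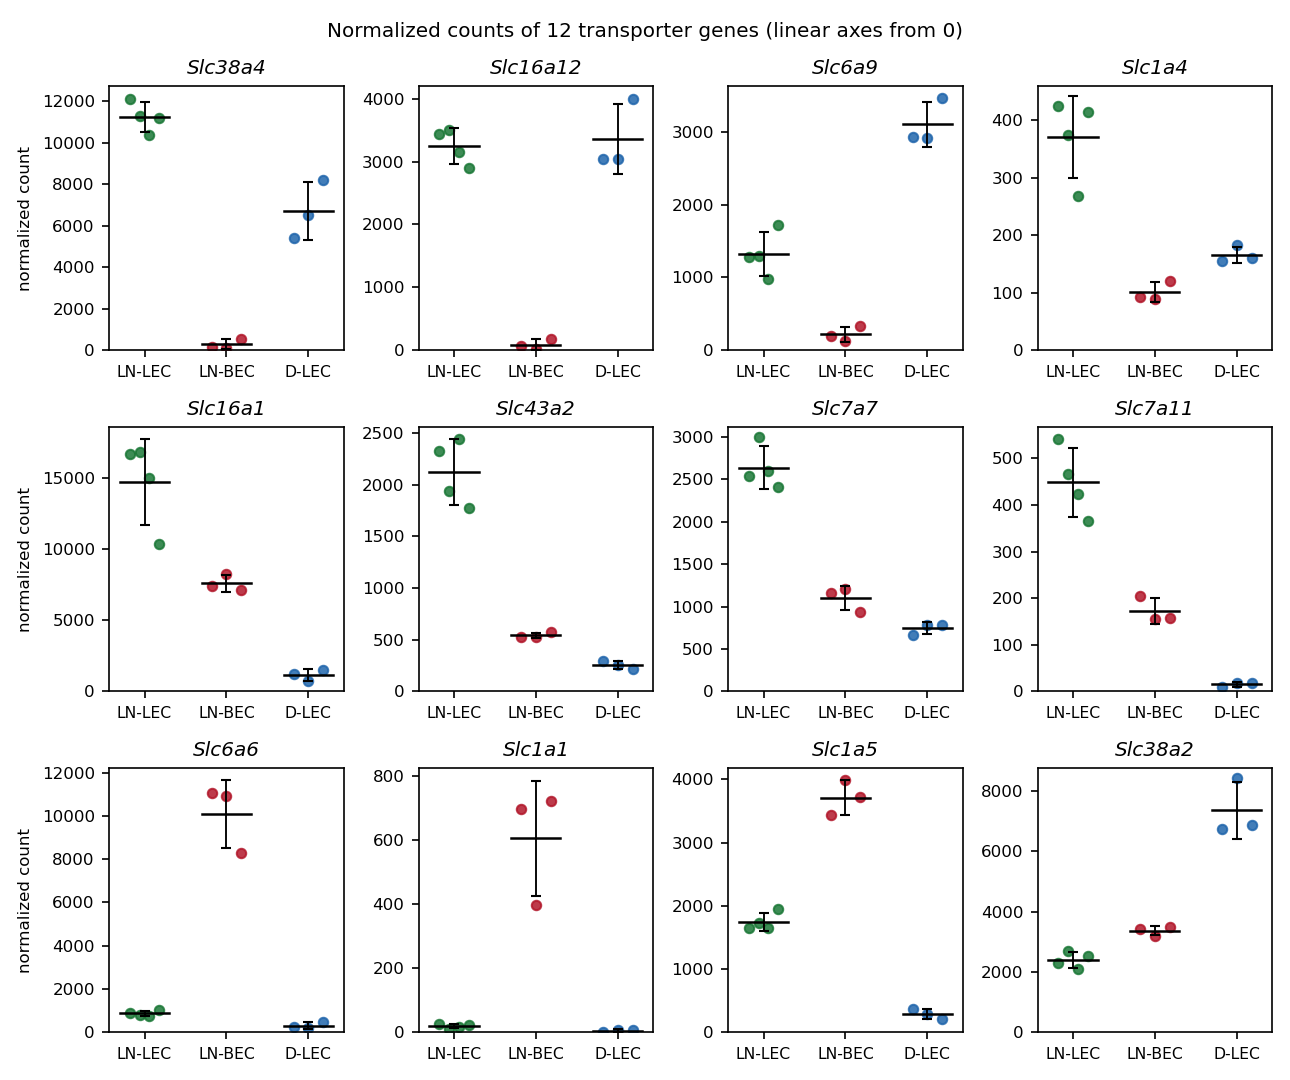
Normalized counts (vertical axes, linear, from 0) of 12 transporter genes in the 3 populations, with a point for each library, a bar at the mean and whiskers of 1 SD. In the top row the LN-BEC libraries are lowest, in the middle row the LN-LEC libraries are highest, and in the bottom row LN-LEC are never highest.

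Of the monocarboxylate transporters of family Slc16, Slc16a1 (MCT1, chr3:104442591-104462385), which carries lactate, pyruvate and ketone bodies with a proton, was the most abundant. Its libraries gave 16660, 16785, 14961 and 10350 in LN-LEC, 7395, 8226 and 7095 in LN-BEC, and 1256, 704 and 1525 in D-LEC. LN-LEC exceeded D-LEC 12.8-fold (log2 fold change 3.68, SE 0.29, adjusted p = 4.1e-06) and LN-BEC 1.96-fold (log2 fold change 0.97, SE 0.25, adjusted p = 0.013), and LN-BEC exceeded D-LEC 6.55-fold (adjusted p = 3e-05). LN-LEC replicate 4 was the lowest of its population. Slc16a7 (MCT2, chr10:124664541-124765591), a carrier of the same substrates with higher affinity, was read at 346, 355, 373 and 323 in LN-LEC, at 70.0, 28.5 and 119 in LN-BEC, and at 45.4, 57.1 and 79.3 in D-LEC. It was 4.91-fold higher in LN-LEC compared with LN-BEC (adjusted p = 0.00035) and 5.78-fold higher than in D-LEC (adjusted p = 0.00017).

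Slc16a3 (MCT4), which exports lactate from glycolytic cells such as fast muscle fibres, was low and ran the other way. Normalized counts were 98.4, 97.2 and 95.0 in D-LEC and no more than 35.8 in any lymph node library. D-LEC exceeded LN-LEC 3.71-fold (adjusted p = 0.00011) and LN-BEC 4.85-fold (adjusted p = 5.1e-05). The muscle transcript Acta1 was read at 476 to 573 in D-LEC and at no more than 6.05 in the lymph node libraries, and 11 of 13 muscle markers were higher in D-LEC than in LN-LEC; their part in the Slc16a3 level was not tested. Lactate dehydrogenase A (Ldha) passed in no comparison, with averages of 3883 in LN-LEC, 5352 in D-LEC and 5272 in LN-BEC. Bsg, the partner that carries MCT1, MCT3 and MCT4 to the surface, varied little, with 5578 ± 585 (SD, n = 4) in LN-LEC, 7641 ± 459.6 (n = 3) in LN-BEC and 5971 ± 559.5 (n = 3) in D-LEC, the LN-BEC level being higher than that of LN-LEC by 0.44 ± 0.1 (SE) on the log2 scale (adjusted p = 0.0031). The 4 proton-linked monocarboxylate transporters are Slc16a1, Slc16a3, Slc16a8 and Slc16a7 (MCT2), the last of which is not among the carriers listed here for Bsg. Per kilobase, they summed to 109% ± 19.1 of Bsg in LN-LEC, 9.61% ± 2.83 in D-LEC and 40.1% ± 0.232 in LN-BEC, without overlap. The ratio followed Slc16a1, which stood at 104% ± 19.1, 7.75% ± 2.78 and 39.2% ± 0.707 of Bsg in the same order of populations. Slc16a7 added 4.56% ± 0.279, 0.728% ± 0.148 and 0.704% ± 0.463.

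The members of the family that carry other substrates had their own patterns. Slc16a12 (MCT12, chr19:34742896-34821601), a creatine transporter, was read at 3431, 3504, 3154 and 2891 in LN-LEC, at 3039, 3039 and 4000 in D-LEC, and at 67.4, 25.9 and 187 in LN-BEC. The lymphatic populations overlapped, and exceeded LN-BEC, LN-LEC by 36-fold (log2 fold change 5.17, SE 0.56, adjusted p = 0.00013) and D-LEC by 36.7-fold (log2 fold change 5.20, SE 0.57, adjusted p = 0.00011). Without LN-BEC replicate 3 these became 6.12 and 6.16 on the log2 scale (adjusted p = 1.3e-07 and 1e-07). The enzymes of creatine synthesis, Gatm and Gamt, were also higher in LN-LEC compared with LN-BEC, by 1.81 ± 0.2 (adjusted p = 6e-06) and 0.84 ± 0.14 (adjusted p = 0.00031), and Gatm was higher still in D-LEC, by 2.01 ± 0.17 over LN-LEC (adjusted p = 4.8e-07). Gamt did not share the order of Slc16a12, as its lowest mean was in D-LEC, at 238 beside 531 in LN-LEC and 299 in LN-BEC. The brain-type creatine kinase Ckb was lower in LN-LEC than in LN-BEC by 3.16 ± 0.23 (adjusted p = 3.8e-07) and lower than the D-LEC level by 4.12 ± 0.24 (adjusted p = 3.2e-08).

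Slc16a9 (MCT9, chr10:69708024-69748699), linked to carnitine transport, was read at 6682, 6207, 5810 and 4997 in LN-LEC, at 5693, 6445 and 4867 in LN-BEC, and at 2704, 3009 and 2495 in D-LEC. Both lymph node populations exceeded D-LEC, LN-LEC by 2.2-fold (adjusted p = 4.1e-06) and LN-BEC by 2.08-fold (adjusted p = 1.1e-05), and the difference between them was 0.08 ± 0.12 (SE). Of the remaining members, Slc16a11 was lower in LN-LEC (17.6 ± 3.11) than in LN-BEC (63.4 ± 23.9, adjusted p = 0.00038) and D-LEC (81.3 ± 4.42, adjusted p = 7.2e-05). Slc16a13, whose gene lies 377 bases away on the opposite strand, passed in no comparison of the fit to all libraries. Between the lymphatic populations, with D-LEC the higher, its log2 fold change was -0.47 (adjusted p = 0.071). It was called once LN-LEC replicate 4 was left out (-0.64, adjusted p = 0.019) and when these populations were fitted alone (-0.49, adjusted p = 0.044). That library held 222 normalized counts of Slc16a13, against 143 to 166 in the other LN-LEC libraries. Slc16a4 averaged 182 in LN-LEC, 122 in D-LEC and 225 in LN-BEC and was called lower in D-LEC, from LN-LEC at an adjusted p of 0.029 that rose to 0.09 without LN-LEC replicate 2 and 0.12 without D-LEC replicate 1, and from LN-BEC at 0.0037. Slc16a14 averaged 26.2 in D-LEC and under 5 elsewhere (adjusted p = 0.0042 against LN-LEC and 0.036 against LN-BEC). For LN-LEC minus D-LEC its log2 fold change moved from -3.52 to -5.61 without LN-LEC replicate 4, its log2 fold change over LN-BEC grew from 2.39 to 3.37 without LN-BEC replicate 1, and the LN-BEC call was lost without either of the other LN-BEC libraries or any D-LEC library (adjusted p between 0.052 and 0.098).

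Promoters of Slc16a1 and Slc16a12 are shown because these carriers separate lymph node from diaphragm and lymphatic from blood endothelium, and because each holds both of the other motifs looked for. These were the E-box CACGTG, bound by MYC, MITF and TFE factors, present in 6.02% of all windows and in 10 of the 71 windows of members (14.1%), and the core of the antioxidant response element TGACNNNGC, bound by NRF2, present in 10.2% of all windows and in 10 of the 71 (14.1%). Capitals mark the matches on either strand, and in Slc16a1 they overlap.
Slc16a1, plus strand, chr3:104638414-104638663: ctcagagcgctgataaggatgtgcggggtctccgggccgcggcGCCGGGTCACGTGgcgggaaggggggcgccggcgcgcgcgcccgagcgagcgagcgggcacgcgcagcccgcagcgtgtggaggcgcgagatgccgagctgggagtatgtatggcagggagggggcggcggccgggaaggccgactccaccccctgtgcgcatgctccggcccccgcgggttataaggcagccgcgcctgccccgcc
Slc16a12, minus strand, chr19:34747329-34747578: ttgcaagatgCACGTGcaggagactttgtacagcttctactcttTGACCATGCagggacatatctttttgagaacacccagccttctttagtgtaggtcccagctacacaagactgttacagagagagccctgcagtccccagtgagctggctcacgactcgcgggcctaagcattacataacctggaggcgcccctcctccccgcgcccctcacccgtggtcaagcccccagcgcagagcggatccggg
In Slc16a1 the E-box begins 200 bases before the start and in Slc16a12 240 bases before it. The Slc7a11 window shown above holds neither motif. The presence of these letters was not related to any change in level.

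The genes around the transporters were read from lists. Of 6 partner and trafficking proteins, 4 were higher in LN-BEC compared with LN-LEC and none lower (18.4% and 19.8% of all genes), and 1, Nptn, was higher in D-LEC than in LN-LEC. Of 15 amino acid response genes, 4 were higher in LN-LEC and 4 in LN-BEC in that comparison, and 2 were higher in LN-LEC and 5 in D-LEC in the other (24.0% and 21.7% of all genes); the medians were 0.13 and -0.16 on the log2 scale beside -0.01 and 0.03 over all genes. Within this list, Asns, asparagine synthetase, was lower in LN-LEC (348) than in LN-BEC (1277) by 1.83 ± 0.52 (adjusted p = 0.026), and Psat1, of serine synthesis, was higher by 1.18 ± 0.21 (adjusted p = 0.00071). Trib3 was higher in D-LEC than in LN-LEC by 1.15 ± 0.14 (adjusted p = 1.3e-05) and Cebpb by 2.32 ± 0.37 (adjusted p = 0.00095). Of 23 tested genes through which lysosomal amino acids reach mTORC1, 2 were higher in LN-LEC and 3 in LN-BEC (19.8% and 18.4% of all genes), 3 were higher in LN-LEC and 6 in D-LEC (24.0% and 21.7%), and 9 were higher in D-LEC and 3 in LN-BEC (22.4% and 25.6%). The Rag GTPase Rragd stood at 1269 in LN-LEC, 130 in D-LEC and 362 in LN-BEC (log2 differences of LN-LEC from LN-BEC 1.83 ± 0.28, adjusted p = 0.0005, and from D-LEC 3.28 ± 0.31, adjusted p = 1.3e-05), and the arginine sensor Castor1 was lowest in LN-LEC, by 1.4 ± 0.17 against LN-BEC (adjusted p = 1.2e-05) and 2.28 ± 0.17 against D-LEC (adjusted p = 8.5e-08). Of 29 enzymes that make or use the substrates, 7 were higher in LN-LEC and 10 in LN-BEC (19.8% and 18.4% of all genes), 6 were higher in LN-LEC and 12 in D-LEC (24.0% and 21.7%), and 10 were higher in D-LEC and 8 in LN-BEC (22.4% and 25.6%). Glul, which makes glutamine, was highest in LN-BEC, by 1.13 ± 0.12 over LN-LEC (adjusted p = 3.7e-06) and 2.74 ± 0.14 over D-LEC (adjusted p = 1.5e-09).

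The transporters that were hard to measure are named here. No count was found in any library for Slc7a13, Slc6a5, Slc6a11 and Slc6a18, and Slc6a19, Slc1a6, Slc16a5, Slc7a15, Slc7a12 and Slc6a12 stayed below the level needed for a test. In LN-LEC 29 of the 73 members, in LN-BEC 25 and in D-LEC 30 had a mean under 10 normalized counts. Among members above 100 the coefficient of variation between libraries had a median of 9.33% in LN-LEC, 15.1% in D-LEC and 15% in LN-BEC, and its highest values were 84.3% for Slc38a4 in LN-BEC, 50.4% for Slc6a6 in D-LEC and 23.1% for Slc6a9 in LN-LEC. Sequence shared between genes touched few members. Exon bases annotated to another gene made up 36.5% of Slc16a6, 26.3% of Slc3a1, 9.13% of Slc7a10, 9.1% of Slc7a7 and 1.34% of Slc6a9 and none of any other member, and fragments in them were not counted for either gene. Windows of 100 exon bases with a second exact copy in the genome were at most 3.74% of any member (Slc3a2). Slc16a6, the member with most shared bases, passed in no comparison.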

How the data were processed

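RNA of sorted LN-LEC (4 libraries), LN-BEC (3) and D-LEC (3) was amplified with a whole-transcriptome kit and sequenced in pairs on a HiSeq. The authors trimmed reads, aligned them with STAR to mm9 and deposited raw counts per gene symbol, made with featureCounts 1.4.4 without regard to strand; fragments that matched several places or several genes were not counted, so shared or overlapping exons lower a count. The deposited exon length of each gene was used for levels per kilobase. Groups came from the labels, which give neither batch nor pairing.

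Levels are counts divided by DESeq2 1.42.0 size factors. After 3770 symbols of predicted genes and clones were left out (none a member), 15368 genes whose normalized count averaged at least 1 in at least 1 population were fitted with edgeR 4.0.16 in R 4.3.3 (TMM, robust quasi-likelihood F test, 1 mean per population, all 10 libraries) and p-values were adjusted by Benjamini-Hochberg over all of them, with a threshold of 0.05. Standard errors were obtained from the log2 fold change and its F statistic. The procedure was tested on simulated data. A floor of 3 counts covers counting error only.

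Members were taken by symbol. Values in every library are given for members with an adjusted p under 0.05, at least a 2-fold difference, libraries that do not overlap in at least 1 comparison and a mean of at least 100 in the higher population, and for Slc3a2. The members and all lists were chosen with earlier results of these data known. Alternatives were DESeq2, other scaling and filters, fits to the compared populations alone, and leaving out libraries; leaving out LN-BEC replicate 3 and LN-LEC replicate 4 together was among them. Promoters came from RefSeq (GRCm38.p6). No other table of counts was used. Some members and list genes are not reported here.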

Additional observations from a re-analysis of the deposited data

Results flagged for a closer look

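Among the 4 LN-LEC libraries, 12 of 63 members had 1 library whose gap to the nearest other, as a share of the range, was above Dixon's critical value for 4 samples, which chance passes in about 1 of 20 groups. Of these, 8 stood out in replicate 4, the deepest library. For Slc1a3 it held 180 normalized counts against 33.9 to 50.8 in the others, for Slc7a5 81.1 against 39.6 to 44.4, and for Slc38a7 241 against 204 to 208. Its values were 5.66 for Slc6a17, 2.51 for Slc6a7, 1.89 for Slc38a8, and 1.26 for both Slc1a7 and Slc38a5, where the other LN-LEC libraries had no count; a gene with counts in 1 library alone passes this limit by construction, so the rate of 1 in 20 does not apply to these 5. Replicate 3 was high for Slc43a3, at 18300 against 15200 to 15500, and for Slc16a6, at 48.6 against 35 to 35.5. Replicate 2 was high for Slc7a8, at 36.8 against 18.9 to 19.4, and replicate 1 for Slc16a10, at 13 against 4.4 to 5.08. The other populations, with 3 libraries each, were not compared in this way.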

How the results depend on the processing

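No paired analysis was possible because the labels give the libraries no shared replicate numbers. With 1 library left out, the number of members called ranged from 27 to 32 between LN-LEC and LN-BEC, from 32 to 38 between LN-LEC and D-LEC and from 29 to 33 between D-LEC and LN-BEC; under the other alternatives it ranged from 25 to 33, 33 to 39 and 30 to 33. Of 3147 values for single members under the 17 alternatives, 3056 stayed on their side of the threshold, 53 lost a call, 38 gained one and 0 reversed a call. The direction of differences that were not called is not covered by these numbers. Calls kept under every alternative numbered 24 of 29, 29 of 36 and 29 of 32. The folds of Slc38a4 and Slc16a12 over LN-BEC moved by over 1.5 times without LN-BEC replicate 3, as given above; the cause was not tested.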
